A study of Mus musculus with 30 samples.

Results

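The genes described here are 100 mouse genes whose mean levels were near untreated 2 h after SRCAP degradation began. Their mean levels were higher 6 h and 8 h after it. They were selected on exon counts of a time course, as CPM, counts scaled to a fixed total using each library's exon total. Of 55401 genes in the count tables, 10677 had a mean of at least 5 CPM over the 10 time course libraries, and 5040 of these had a log2 difference from untreated cells between -0.1 and 0.1 at 2 h, computed from the means of replicates with 0.5 CPM added. After genes with symbols starting Zfp, Hox, Fox, Wnt or mt- were dropped, 4959 were left, and the 100 with the highest value of the lower of the 6 h and 8 h differences were taken. The time course therefore describes these genes and tests nothing about them. The tests come from the 3 count tables that took no part in the choice.

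SRCAP is the ATPase of a chromatin remodelling complex that exchanges histone H2A for the variant H2A.Z in nucleosomes. H2A.Z is found at promoters and enhancers of active genes and, in embryonic stem cells, at bivalent promoters, which carry marks of activity and of Polycomb repression together. When a protein is removed by a degron, transcripts that answer within the first hours are usually distinguished from those that change later, because the later ones can follow from changes in other transcripts or proteins.

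Nuclear RNA of mouse embryonic stem cells was measured by RNA-seq in 30 libraries of 15 groups with 2 replicates each. SYAT cells are CGR8 embryonic stem cells, a single clone in which both Srcap alleles carry YPet and an auxin-inducible degron and which express the OsTir1 receptor from a lentiviral EF1a construct, so that indole-3-acetic acid (IAA, 500 µM) leads to degradation of SRCAP. By the study's methods, the routine medium of SYAT cells held the Tir1 inhibitor auxinole, which was their control condition. Controls of the wtSRCAP and cdSRCAP lines described below also stayed in auxinole. Comparisons of IAA with control in these cells therefore set IAA against the inhibitor. The time course compared SYAT cells labelled untreated, and called so here, with cells after 2, 4, 6 and 8 h of IAA.

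The other tables held 3 further designs. Untagged CGR8 cells, which lack the degron and OsTir1, were given IAA for 4 h or not. SYAT cells carrying a mitotic degron reporter were sorted by DNA content and reporter level into early G1 (EG1) and late G1 (LG1), with or without 1 h of IAA. A pair of SYAT derivatives, each 1 clone, expressed mCherry fusions of SRCAP after 24 h of doxycycline at 1 µg/mL, either wild type (wtSRCAP) or a catalytically dead form with mutations in the ATPase domain (cdSRCAP). They were given IAA for 4 h or kept as control, and were then sorted for mCherry just before the nuclei were taken.

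Exon totals were 17540823 to 22873893 counts in the time course, 45617992 to 60214521 in CGR8 cells, 19740778 to 26672402 in sorted cells and 12236493 to 26369773 in the wtSRCAP and cdSRCAP cells. All 8 embryonic stem cell markers examined, Pou5f1, Sox2 and Nanog among them, were above 1 CPM in every library. IAA acts on the SRCAP protein, and Srcap transcripts stayed in every library, at 40.3 and 48.5 CPM in untreated SYAT cells and 43.3 and 63.5 CPM at 8 h. In EG1 they were 61.4 and 54.1 CPM in control and 53.7 and 51.8 CPM with IAA, both IAA libraries being lower. The replicate 2 library at 6 h stood apart, with a median log2 difference of -0.24 over the 10677 genes against -0.09 in replicate 1. The wtSRCAP IAA replicate 1 library stood apart in the same way, at -0.34 against -0.04 in replicate 2.

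Promoters are shown for 5 of the 6 genes that passed the same unadjusted test in wtSRCAP and in cdSRCAP cells, the other being Socs5. Their 250 bases before the RefSeq start site (GRCm38.p6) are printed 5′ to 3′ with matches to any of 9 short motifs in capitals.
Tnfrsf1b: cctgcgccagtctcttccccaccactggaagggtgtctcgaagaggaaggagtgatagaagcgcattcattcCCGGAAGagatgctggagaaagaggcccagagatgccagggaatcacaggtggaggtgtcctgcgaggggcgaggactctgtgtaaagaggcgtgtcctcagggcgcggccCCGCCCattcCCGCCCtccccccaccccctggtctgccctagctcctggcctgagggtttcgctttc
Steap3: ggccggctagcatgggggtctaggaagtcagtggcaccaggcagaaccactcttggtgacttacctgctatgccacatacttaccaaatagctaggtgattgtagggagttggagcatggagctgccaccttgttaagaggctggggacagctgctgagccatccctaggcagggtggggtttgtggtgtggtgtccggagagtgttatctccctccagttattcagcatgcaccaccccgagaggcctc
Gli2: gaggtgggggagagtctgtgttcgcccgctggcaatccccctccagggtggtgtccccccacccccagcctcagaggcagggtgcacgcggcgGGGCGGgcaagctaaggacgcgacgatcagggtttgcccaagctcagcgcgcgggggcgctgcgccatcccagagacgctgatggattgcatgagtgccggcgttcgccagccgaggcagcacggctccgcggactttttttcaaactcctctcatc
Wfdc2: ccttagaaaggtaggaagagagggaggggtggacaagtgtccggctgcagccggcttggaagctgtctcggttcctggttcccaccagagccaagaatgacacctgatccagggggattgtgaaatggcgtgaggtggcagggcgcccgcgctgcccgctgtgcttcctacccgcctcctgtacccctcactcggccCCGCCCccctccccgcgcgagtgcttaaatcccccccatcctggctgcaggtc
Aplp1: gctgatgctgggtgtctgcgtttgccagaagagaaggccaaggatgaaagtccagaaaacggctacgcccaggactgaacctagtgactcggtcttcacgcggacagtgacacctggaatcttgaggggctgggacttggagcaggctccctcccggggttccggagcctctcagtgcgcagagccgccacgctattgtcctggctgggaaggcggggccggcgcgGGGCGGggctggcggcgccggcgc
The Tnfrsf1b bases are at chr4:145246871-145247120 on the minus strand. The Steap3 bases are at chr1:120271081-120271330 on the minus strand. The Gli2 bases are at chr1:119053620-119053869 on the minus strand. The Wfdc2 bases are at chr2:164562465-164562714 on the plus strand. The Aplp1 bases are at chr7:30445583-30445832 on the minus strand. The capitals are GC boxes (GGGCGG, or CCGCCC on the other strand), of which Tnfrsf1b held 2, and 1 ETS motif (CCGGAAG) in Tnfrsf1b. Steap3 held no match to any of the 9 motifs.

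Of the 100 genes, 70 had a RefSeq promoter window of 300 bases, and the windows were rich in G and C, with a median of 64.5% against 62.0% over the 7991 windows of genes with at least 5 CPM. The median ratio of observed to expected CpG was 0.717 against 0.799. A GC box was found on either strand in 51 of the 70 windows (72.9%, against 69.2% of the 7991). A CCAAT box (CCAAT) was in 19 (27.1%, against 39.4%), an ETS motif in 8 (11.4%, against 20.4%) and an E-box (CACGTG) in 6 (8.57%, against 11.2%). TATAAA was in 2 windows and TGANTCA, the AP-1 motif, in 4, while TGACGTCA, the CRE, was in none, against 6.14%, 4.12% and 3.54% of the 7991. The octamer ATGCAAAT and the NRF1 motif were in 1 window each, against 1.36% and 2.4%.

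In the time course the 100 genes were higher as a group from 4 h on, which the choice fixed for 6 h and 8 h. Their median log2 difference from untreated cells was 0.05 at 2 h, 0.26 at 4 h, 0.45 at 6 h and 0.44 at 8 h. The medians over the 10677 genes were -0.02, -0.03, -0.16 and -0.02, so at 6 h the CPM scale lay below untreated cells for the typical gene and the 100 genes stood further from it than their own value. With CPM scaled by trimmed mean of M-values (TMM), which removes this shift, the 6 h median of the 100 genes was 0.63 beside 0.01 for the 10677.

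**Figure D1:**
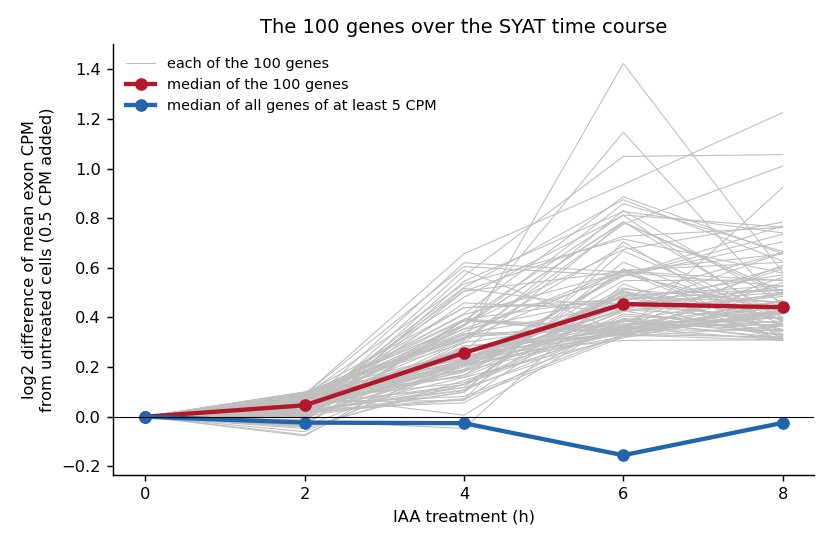
Log2 difference of mean exon CPM from untreated SYAT cells (vertical axis, 0.5 CPM added) against hours of IAA (horizontal axis), for each of the 100 genes in grey, with their median in red and the median of the 10677 genes of at least 5 CPM in blue. The red line passes 0.26 at 4 h and is level between 6 h and 8 h at 0.45 and 0.44, and the blue line dips to -0.16 at 6 h.

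Within the window allowed at 2 h the genes lay mostly on its upper side, with 84 of 100 above 0 and 44 above 0.05. At 4 h, which the choice did not use but which shares the untreated libraries, 99 were above 0, and 86 lay between 0 and the lower of their 6 h and 8 h values. The other 13 were already at or above that value at 4 h. Between 6 h and 8 h the genes divided evenly, 51 being higher at 8 h and 49 at 6 h. The changes were small in size: 21 genes exceeded 0.5 at both times and 1, Adgra2, exceeded 1.

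Single libraries overlapped for many of the genes. All 4 libraries of 6 h and 8 h were above both untreated libraries for 66 of the 100 genes, against 8.64% of the 10677, a contrast the choice used. At 4 h both libraries were above both untreated libraries for 43 genes, against 17.6% of the 10677. The choice did not use the 4 h libraries but did use the untreated ones, so this count was not free of the choice either.

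Membership depended on single libraries. When the choice was repeated without one library, between 32 (without untreated replicate 2) and 100 (without one of the 4 h libraries) of the 100 genes were taken again. Without replicate 1 of 2 h 35 were taken again, and without replicate 2 of 2 h also 35. The number was 43 without untreated replicate 1 and 46 without replicate 2 of 6 h. With TMM-scaled CPM 63 were taken again. Over the TMM scaling and the 10 choices without 1 library, a gene was taken again in a median of 7 of 11, and Wfdc2 and Sh3pxd2a in all 11. At the edge, Capn2, Exosc4 and Hdac4 entered with a lower value of 0.31 each, and Pcgf6, Rab3ip and Npnt were just left out, also at 0.31.

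Adgra2 (ENSMUSG00000031486.15), an adhesion G protein-coupled receptor that takes part in Wnt7 signalling, had the largest value of the 100. It lies on chromosome 8 at 27085583 to 27123436 (GRCm38, as in the GENCODE vM21 annotation used for all positions below). Its exon CPM was 4.70 and 2.89 in the untreated libraries, 3.83 and 3.73 at 2 h, 5.82 and 5.90 at 4 h, 7.64 and 9.12 at 6 h, and 9.26 and 7.59 at 8 h. All libraries from 4 h on were above both untreated libraries, and the 2 h libraries lay between these.

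Lrrc75aos2, second in order, is an antisense RNA on chromosome 11 at 62605766 to 62607748, inside Lrrc75a (62604884 to 62648523), which was itself chosen. Lrrc75aos2 had 3.42 and 2.75 CPM in untreated cells and 9.11 and 6.66 CPM at 8 h. Lrrc75a had 22.9 and 16.0 CPM in untreated cells and 28.0 and 29.4 CPM at 8 h. The library kit keeps strand, but whether the counting used it is not given in the sources used here, so reads of the 2 genes may not have been told apart.

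Tapbp, tapasin, which loads peptides onto MHC class I molecules, had 70.8 and 50.2 CPM in untreated cells. It had 106 and 108 CPM at 6 h, and 120 and 85.7 CPM at 8 h. Among genes of the matrix and the cytoskeleton, Loxl1, an enzyme that cross-links elastin, had 3.98 and 3.50 CPM in untreated cells. At 8 h Loxl1 had 6.37 and 7.02 CPM. For both genes the late libraries were above both untreated ones. Krt19, a keratin of simple epithelia, had 17.5 and 6.78 CPM in untreated cells and 28.3 and 10.8 CPM at 8 h, so its groups overlapped, and the replicates lay far apart at nearly every time. Kifc3, a minus-end-directed kinesin, was split by replicate in the same way, with 19.5 and 29.2 CPM untreated and 27.8 and 49.6 CPM at 8 h.

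**Figure D2:**
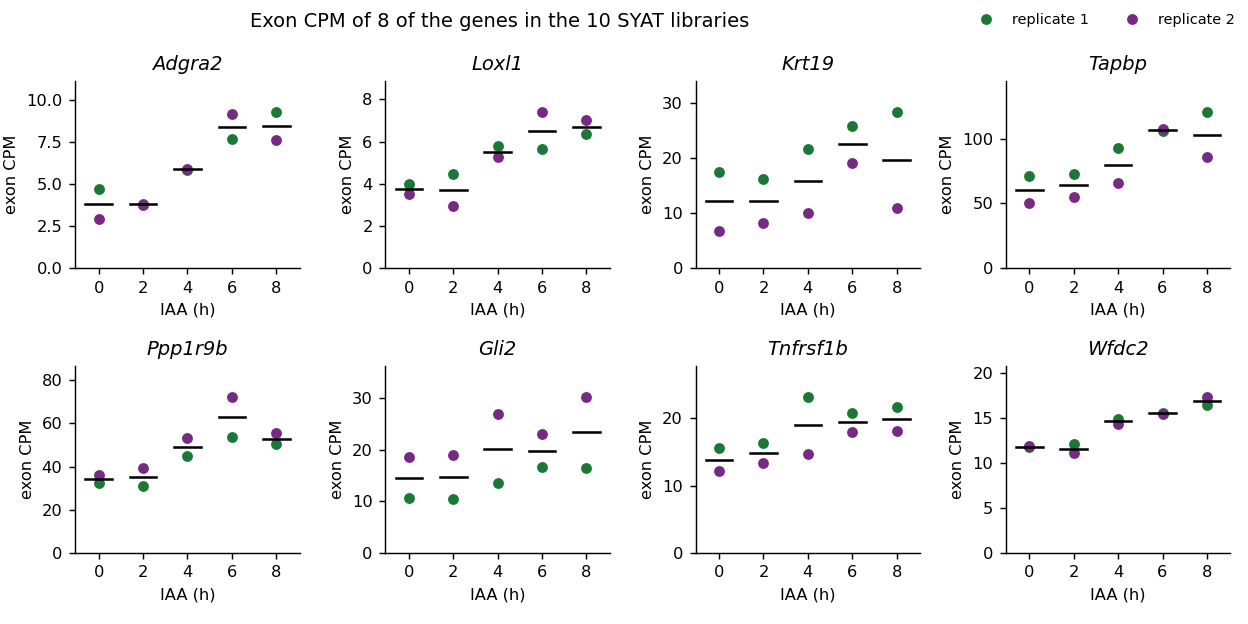
Exon CPM (vertical axis) against hours of IAA (horizontal axis) of 8 of the 100 genes in the 10 SYAT libraries, replicate 1 in green and replicate 2 in purple, with the mean of the 2 as a black line. Adgra2 and Wfdc2 show late libraries clear of the untreated ones, whereas Krt19 and Gli2 differ more between replicates than between some times.

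The other genes among the first 15 were Pdzd2, 2610528J11Rik, Shisa6, Ppp1r9b, Alox15, Kirrel, 1190005I06Rik, Atcay and Tmcc3. Ppp1r9b, spinophilin, a regulatory subunit of protein phosphatase 1, had 32.4 and 35.9 CPM in untreated cells and 53.8 and 72.3 CPM at 6 h. Pdzd2, a protein with several PDZ domains, had 30.5 and 36.1 CPM in untreated cells and 58.0 and 77.1 CPM at 8 h. The log2 difference of 1.42 of 1190005I06Rik at 6 h rested on 1 library, with 29.7 CPM in replicate 2 and 5.64 CPM in replicate 1, beside 5.26 and 7.30 CPM untreated. Alox15, a lipoxygenase, was low throughout, at 3.37 and 4.42 CPM untreated and 5.95 and 6.57 CPM at 8 h.

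The signalling genes among the 100 included 8 whose symbols mark ligands, receptors or secreted regulators: Adgra2, Tnfrsf1b, Cxcl12, Flt4, Sfrp1, Sema3e, Igfbp3 and Angpt2. Such symbols made up 2.46% of the genes of at least 5 CPM. The symbols did not catch every such gene, since Nrtn and Wfdc2, described below as a growth factor and a secreted protein, were missed. The count was therefore not read as an excess of the class. Cxcl12, a chemokine, had 16.3 and 17.6 CPM in untreated cells, 17.3 and 18.2 CPM at 2 h, and 22.6 to 24.7 CPM in the 6 libraries from 4 h on, with no overlap. Sfrp1, a secreted Wnt antagonist, had 29.2 and 32.8 CPM untreated and 48.2 and 46.0 CPM at 8 h. Tnfrsf1b, the TNF receptor 2, had 15.5 and 12.2 CPM untreated and 21.7 and 18.2 CPM at 8 h. Angpt2, an angiopoietin, was the least even, with 8.89 and 12.1 CPM untreated and 8.12 and 32.6 CPM at 8 h.

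Transcription regulators by symbol were Phf1, Gli2, Ppargc1b, Glis3 and Hdac4. Gli2, an effector of Hedgehog signalling, had 10.6 and 18.6 CPM in untreated cells and 16.5 and 30.3 CPM at 8 h, where the replicates overlapped with the untreated ones. Ppargc1b, a coactivator of genes of mitochondrial metabolism, had 7.82 and 7.56 CPM untreated, 9.69 and 13.8 CPM at 6 h, and 8.55 and 11.9 CPM at 8 h, all late libraries being higher. Another 10 symbols marked kinases, phosphatases, ubiquitin ligases and regulators of small GTPases, against 9.11% of the genes of at least 5 CPM. Dgkz, Socs5 and Cdk6 were among them. Cdk6, a kinase of G1 progression, had 80.1 and 69.0 CPM untreated and 89.5 and 108 CPM at 8 h.

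No gene of the 100 was on any of 23 pathway and process lists, which covered among others p53 targets, ATF4 and amino acid stress and aryl hydrocarbon receptor targets. The lists held 468 genes, so this absence was not read as a result about the 100. By symbol, 59 belonged to no family examined, against 65.0% of the genes of at least 5 CPM. Protein-coding genes made up 95 of the 100, against 93.3% of the genes of at least 5 CPM, with a median gene length of 30.9 kb against 23.1 kb and a median exon length of 4.01 kb against 4.55 kb. Only 4 pairs lay within 500 kb of each other, namely Dusp12 and Dedd, Lrrc75a and Lrrc75aos2, Exosc4 and Kifc2, and Kank3 and Tapbp. A gene on the other strand overlapped 51 of the 100, and another gene on the same strand overlapped 29. Neither count is set beside a share of all genes, so neither was read as a result about the 100.

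The intron columns of the time course gave a second reading of the same libraries. They held counts for 51.9% to 52.2% of genes with a single exon, against 0.0537% in CGR8 cells, so they were not read as introns alone. For the 81 genes with at least 5 CPM in them, the median log2 difference was 0.09 at 2 h, 0.35 at 4 h, 0.49 at 6 h and 0.47 at 8 h. At 2 h, 24 of the 81 (29.6%) were above 0.25 in these columns although the exon columns were held between -0.1 and 0.1. The share was 4.18% over the 4332 genes flat in exons at 2 h with the same level. The choice ranked genes on these same libraries, and untreated libraries that were low by sampling would raise every later time here too. The difference between the shares was therefore not read as a rise at 2 h.

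The 3 other tables were tested with edgeR's quasi-likelihood test on exon counts, 1 fit per table, in 10 comparisons. A gene passed the adjusted rule with a Benjamini-Hochberg adjusted p under 0.05 over all genes and a log2 fold change beyond 0.5 in size, and the unadjusted rule with an unadjusted p under 0.05 and a log2 fold change beyond 0.25. All 100 genes were tested in each. None passed the adjusted rule in edgeR in any of the 10 comparisons as fitted, with the group as the only term. Same-numbered libraries deviated together, and with the replicate number added as a block some of the 100 passed it in 6 comparisons. Those counts stand beside each result. DESeq2 passed 2 in CGR8 cells (Pdzd2, lower, and Tdgf1-ps1, higher) and 2 between cdSRCAP and wtSRCAP control cells (Atp2a3 and Sfrp1, higher). The counts below are therefore at the unadjusted rule, and stand beside the percentage of all genes tested that passed it. Counts without 1 library, with column totals or from DESeq2 stand without that percentage, and show only how far a count moved.

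In untagged CGR8 cells the 100 genes were not higher as a group after 4 h of IAA. Their median log2 fold change was -0.09 beside 0.00 for all 20250 genes, and 34 of the 100 were above 0. At the unadjusted rule 4 of the 100 were higher (5.04% of all genes) and 12 were lower (4.12%). In CPM both IAA libraries were above both control libraries for 18 genes (25.5%) and below both for 27 (20.4%). Leaving out a library moved the lower count to between 5 (without CGR8 IAA replicate 2) and 25 (without control replicate 2, where 12 genes passed the adjusted rule, 11 of them lower), with 7 without control replicate 1. With the replicate block 7 were higher (8.52% of all genes) and 24 lower (7.56%), of which 1 higher (1.58%) and 4 lower (0.889%) passed the adjusted rule.

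The 3 genes of smallest p in CGR8 cells were all lower with IAA. Lurap1l had 5.02 and 5.49 CPM in control and 2.33 and 2.44 CPM with IAA (log2 fold change -1.19 ± 0.26 SE, edgeR adjusted p = 0.54). Pdzd2 had 35.7 and 45.6 CPM in control and 26.2 and 26.4 CPM with IAA (-0.68 ± 0.15, edgeR adjusted p = 0.54). Rai1, a nuclear protein, had 37.2 and 40.6 CPM in control and 27.9 and 27.4 CPM with IAA (-0.55 ± 0.14, edgeR adjusted p = 0.54). The 4 higher genes were Tdgf1-ps1, Lrrc75aos2, 2610528J11Rik and Gli2. Tdgf1-ps1 is a processed pseudogene of Tdgf1 whose reads may not be separable from those of its parent. Intron columns, which in CGR8 cells held counts for 0.0537% of single-exon genes, gave a median of 0.03 over the 74 genes tested, with 5 higher (2.57%) and 0 lower.

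In wtSRCAP cells the median log2 fold change of the 100 genes with 4 h of IAA was 0.45, beside -0.02 for all 19111 genes tested. Of the 100, 92 were above 0, and 25 were higher at the unadjusted rule (2.93% of all genes) and 0 lower (4.48%). In CPM both IAA libraries were above both control libraries for 33 genes (7.91%) and below both for 5 (28.2%). The smallest edgeR adjusted p among the 100 was 0.62. Under the replicate block 53 were higher (8.85% of all genes), and 19 passed the adjusted rule as higher (1.74%). On simulated counts for this comparison the fit without the block recovered 0 of 200 genes changed by 1 on the log2 scale at an adjusted p under 0.05. It recovered 188 of 200 changed by 2. The changed genes were of above-median level, and the simulated libraries varied independently, unlike the same-numbered libraries here.

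The wtSRCAP result depended in size on single libraries. Without IAA replicate 1, the library that stood apart, the median was 0.28, with 66 genes above 0 and 11 higher, and without IAA replicate 2 it was 0.67, with 41 higher and 2 lower. Without control replicate 1 and control replicate 2 the higher counts were 17 and 11. With column totals in place of TMM, a setting chosen after the data were seen, the median was 0.27 beside -0.20 for all genes and 10 genes were higher.

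The 3 genes of smallest p in wtSRCAP cells were Ppargc1b, Ppp1r9b and Tnfrsf1b. Ppargc1b had 5.42 and 8.71 CPM in control and 14.5 and 14.3 CPM with IAA (log2 fold change 1.21 ± 0.30 SE). Ppp1r9b had 68.8 and 53.6 CPM in control and 142 and 93.0 CPM with IAA (1.16 ± 0.30). Tnfrsf1b had 7.49 and 5.54 CPM in control and 11.2 and 13.3 CPM with IAA (1.10 ± 0.30). For all 3 the IAA libraries were clear of the control libraries. The other genes higher at the unadjusted rule were of varied kinds, among them Nrtn, the growth factor neurturin (1.09 ± 0.34), Basp1, a membrane protein of growth cones (1.01 ± 0.34), Obsl1, a cytoskeletal adaptor (1.15 ± 0.45), Loxl1 (0.92 ± 0.31) and Sfrp1 (0.60 ± 0.21).

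In cdSRCAP cells 4 h of IAA gave a median log2 fold change of 0.29 beside 0.02 for all genes, with 86 of the 100 above 0. At the unadjusted rule 7 were higher (1.65% of all genes) and 0 lower (3.99%). In CPM both IAA libraries were above both control libraries for 36 genes (15.1%) and below both for 0 (23.7%). The smallest edgeR adjusted p among the 100 was 0.72. Adding the replicate block, 34 were higher (7.16% of all genes), and 8 passed the adjusted rule as higher (0.523%). Without IAA replicate 1 the median was 0.16 and 1 gene was higher, the lowest values among the choices without 1 library. Leaving out the other libraries of the table gave 5 to 12 higher genes.

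**Figure D3:**
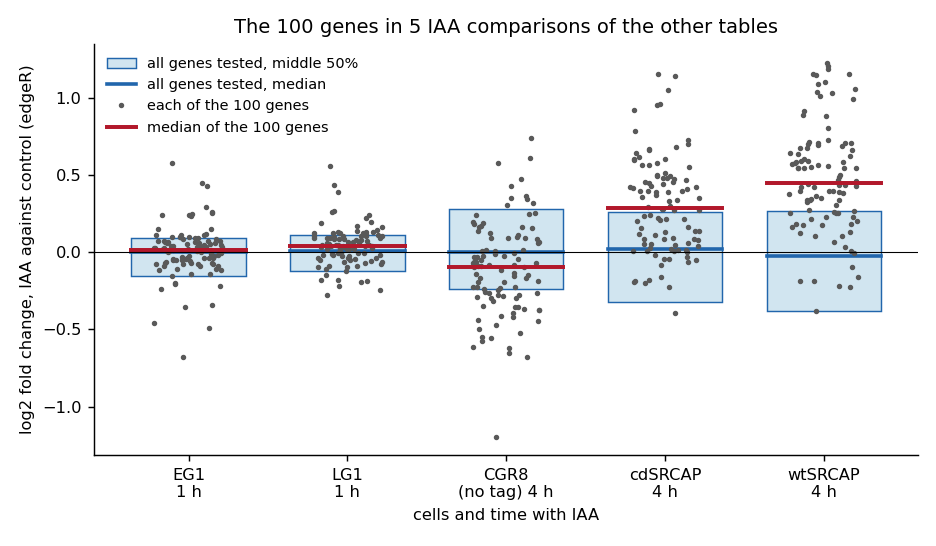
Log2 fold change with IAA (vertical axis, edgeR) of each of the 100 genes as grey points in 5 comparisons (horizontal axis), with their median as a red line, the median of all genes tested as a blue line and the middle 50% of all genes as a box. The red line lies at 0.02 in EG1, 0.04 in LG1, -0.09 in untagged CGR8 cells, 0.29 in cdSRCAP cells and 0.45 in wtSRCAP cells.

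In both lines 6 of the 100 genes were higher at the unadjusted rule (0.759% of all genes), namely Tnfrsf1b, Steap3, Gli2, Socs5, Wfdc2 and Aplp1. These are the genes whose promoters are printed above, apart from Socs5. Wfdc2 (ENSMUSG00000017723.11), a secreted whey acidic protein family member, had 7.36 and 6.52 CPM in wtSRCAP control cells, 11.4 and 12.8 CPM with IAA, 6.33 and 8.34 CPM in cdSRCAP control cells, and 16.1 and 12.9 CPM with IAA. Its log2 fold changes were 0.99 ± 0.28 and 1.05 ± 0.28. Tnfrsf1b (ENSMUSG00000028599.10) had 12.5 and 8.30 CPM in cdSRCAP control cells and 19.9 and 17.2 CPM with IAA, a log2 fold change of 0.92 ± 0.29. The IAA libraries of both genes were above the control libraries in each line.

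Gli2 (ENSMUSG00000048402.14) had 42.1 and 60.6 CPM in wtSRCAP control cells and 59.3 and 100 CPM with IAA, which overlap (0.81 ± 0.26). In cdSRCAP cells it had 85.6 and 81.6 CPM in control and 137 and 121 CPM with IAA (0.70 ± 0.26). Steap3, an endosomal ferrireductase, had 50.2 and 40.0 CPM in wtSRCAP control cells and 80.4 and 63.6 CPM with IAA (0.88 ± 0.30). In cdSRCAP cells Steap3 had 42.7 and 33.1 CPM in control and 75.9 and 47.3 CPM with IAA (0.79 ± 0.30). Socs5, a suppressor of cytokine signalling, changed by 0.64 ± 0.24 and 0.57 ± 0.24, and Aplp1, of the amyloid precursor family, by 0.59 ± 0.21 and 0.48 ± 0.20.

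**Figure D4:**
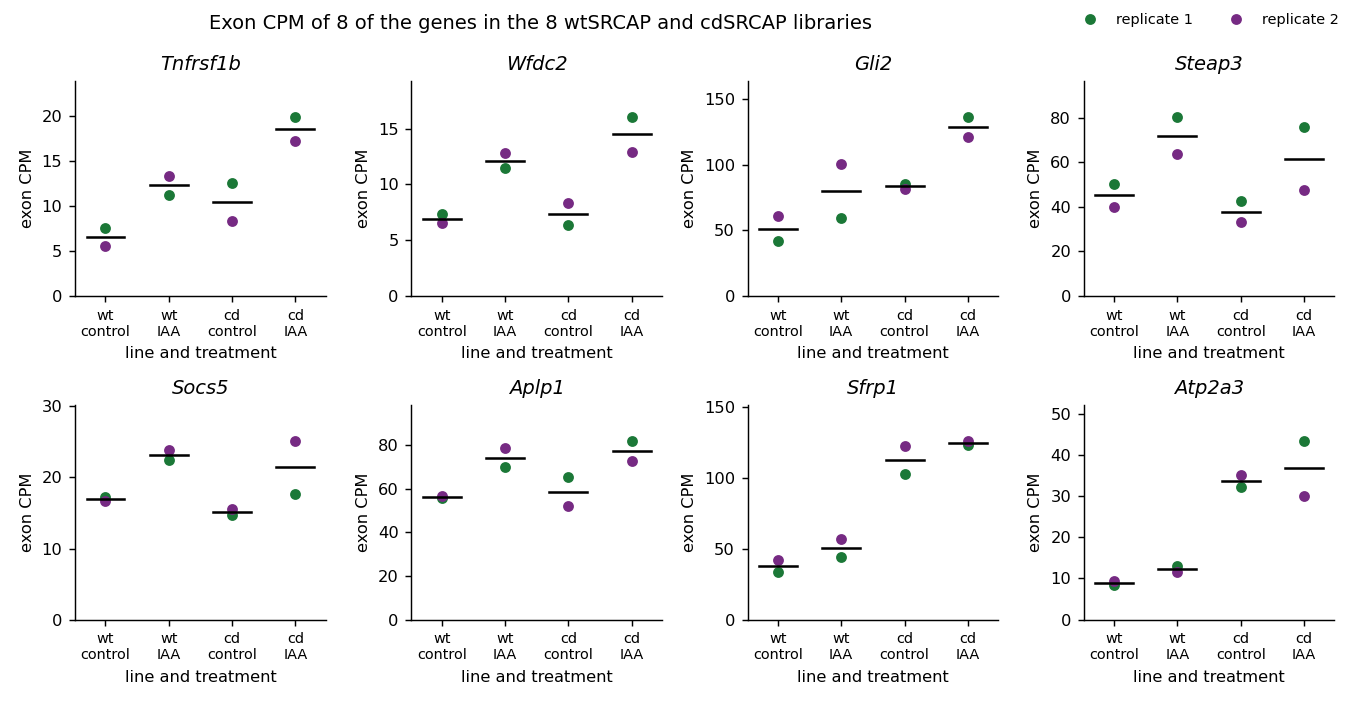
Exon CPM (vertical axis) of 8 of the 100 genes in the 8 libraries of wtSRCAP (wt) and cdSRCAP (cd) cells without and with IAA (horizontal axis), replicate 1 in green and replicate 2 in purple, with the mean of the 2 as a black line. Wfdc2, Tnfrsf1b and Socs5 are higher with IAA in both lines, and Sfrp1 and Atp2a3 stand higher in cdSRCAP cells with or without IAA.

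The intron columns of these lines, with counts for 0.0935% of single-exon genes, could be read as introns. Of the 75 genes tested in them, 22 were higher with IAA in wtSRCAP cells (5.76% of all genes) and 12 in cdSRCAP cells (3.78%), with 0 lower in either. The medians were 0.48 and 0.32.

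Whether the response to IAA differed between the lines was tested as an interaction. The median of the difference, cdSRCAP minus wtSRCAP, was -0.19 beside 0.02 for all genes, with 28 of the 100 above 0. None was higher (0.413% of all genes) and none lower (0.372%) at the unadjusted rule, and 0 had an unadjusted p under 0.05 in edgeR or passed the unadjusted rule in DESeq2. With the replicate block 7 were lower (1.22% of all genes) and 0 higher, and 0 passed the adjusted rule. The nearest without it were Mttp, which loads lipid onto lipoproteins (-0.89 ± 0.47 SE), Tent5b, a poly(A) polymerase (-0.66 ± 0.37), and Ppargc1b (-0.73 ± 0.42), each with an edgeR adjusted p of 1.00. Without wtSRCAP IAA replicate 1 the median was 0.02 and 51 genes were above 0, so its sign rested on that library. Without wtSRCAP IAA replicate 2 it was -0.41, with 8 genes lower. With column totals in place of TMM it was -0.08 beside 0.13 for all genes.

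**Figure D5:**
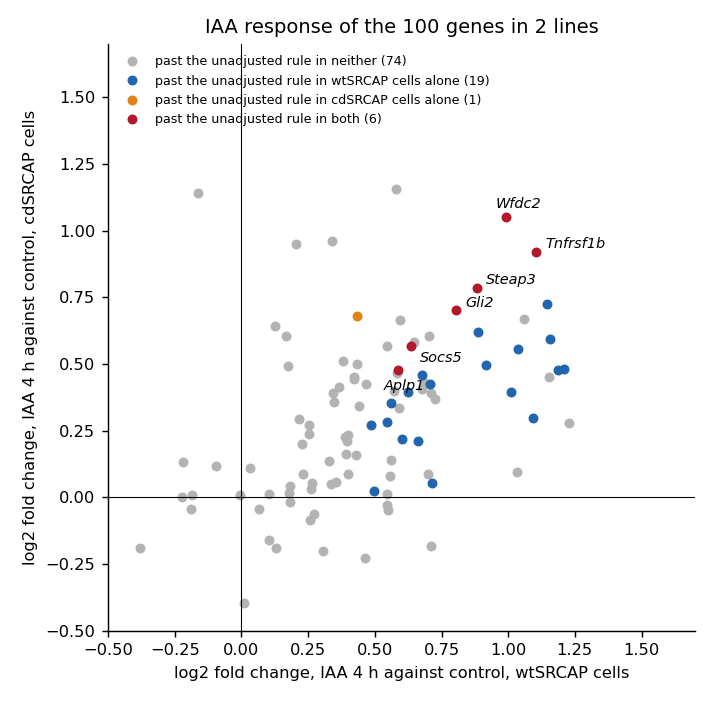
Log2 fold change with 4 h of IAA in wtSRCAP cells (horizontal axis) against that in cdSRCAP cells (vertical axis) for the 100 genes, coloured by whether they passed the unadjusted rule in neither, one or both lines. Most points lie above 0 on both axes, and the 6 genes named in it passed the rule in both lines.

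The lines also differed without a change in treatment. Between cdSRCAP and wtSRCAP control cells 8 of the 100 genes were higher in cdSRCAP (2.5% of all genes) and 2 lower (1.32%), with a median of 0.08 beside -0.02, or -0.01 without wtSRCAP control replicate 2. The fit with the replicate block had 20 higher (5.13%) and 8 lower (4.93%), and 5 passed the adjusted rule as higher (0.612%). Sfrp1 had 33.7 and 41.8 CPM in wtSRCAP control cells and 103 and 123 CPM in cdSRCAP control cells (1.53 ± 0.22, edgeR adjusted p = 0.27). Atp2a3, an endoplasmic reticulum calcium pump, had 8.43 and 9.31 CPM against 32.1 and 35.0 CPM (1.87 ± 0.28, edgeR adjusted p = 0.27). Flt4, the VEGF receptor 3, had 10.97 and 7.96 CPM against 27.8 and 19.8 CPM (1.28 ± 0.28, edgeR adjusted p = 0.98). Srcap had 53.7 and 50.1 CPM in wtSRCAP control cells and 64.8 and 62.1 CPM in cdSRCAP control cells. With IAA it had 47.9 and 57.0 CPM against 74.0 and 62.8 CPM. By the study's methods the fusions were made from mouse SRCAP cDNA, so these counts may hold reads of the fusion and of the endogenous gene together. Each line is 1 clone, so the clone, the level of Srcap transcripts and the form of SRCAP cannot be told apart here.

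With IAA in both lines, 5 genes were higher in cdSRCAP (2.84% of all genes) and 1 lower (2.19%), with a median of -0.16 beside 0.02. The block fit had 11 higher (7.07%) and 14 lower (7.06%), of which 5 higher (0.591%) and 2 lower (0.816%) passed the adjusted rule. The same 3 genes had the smallest p, at 1.15 ± 0.21 for Sfrp1, 1.42 ± 0.27 for Atp2a3 and 1.16 ± 0.28 for Flt4. Pdzd2 was also higher in both comparisons, which made 4 genes of the 100 (0.837% of all genes). The comparisons share the lines but no library. Krt19 was the lower gene (-2.12 ± 0.71), with 25.1 CPM in wtSRCAP IAA replicate 1 beside 5.54 in replicate 2 and 4.00 and 4.18 in cdSRCAP cells. Without wtSRCAP IAA replicate 1 the median was 0.19 and 0 genes were lower, and without wtSRCAP IAA replicate 2 it was -0.36 and 20 were lower. With column totals in place of TMM the median was 0.01 beside 0.18 for all genes, with 10 higher.

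In sorted cells 1 h of IAA moved none of the 100 genes past the unadjusted rule in EG1 (0.19% of all genes passed as higher, 1.03% as lower) or in LG1 (0.285% and 0.733%). By edgeR 0 of the 100 had an unadjusted p under 0.05 in either phase, and DESeq2 passed 0. With the replicate block 3 were higher (1.5% of all genes) and 2 lower (4.53%) in EG1, and 5 higher (1.61%) and 0 lower in LG1. The medians were 0.02 and 0.04 beside 0.00 and 0.01 for all 21020 genes, with 56 and 65 of the 100 above 0. The genes of smallest p in EG1 were Xkr6 (-0.46 ± 0.20), Angpt2 (-0.68 ± 0.32) and Tdgf1-ps1 (0.23 ± 0.16). In LG1 they were Dusp12, a phosphatase (0.39 ± 0.17), Alox15 (0.56 ± 0.26) and Cxcl12 (0.44 ± 0.24). The edgeR adjusted p of all 6 values was 1.00.

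The response in LG1 minus that in EG1 passed the unadjusted rule for 0 of the 100 genes in edgeR and DESeq2 (0.452% of all genes were higher and 0.247% lower), with 0 at an unadjusted p under 0.05. Its median was 0.02 beside 0.01. With the replicate block 3 were higher (2.42%) and 1 lower (1.34%). The genes of smallest p were Angpt2 (0.76 ± 0.45), Cxcl12 (0.55 ± 0.33) and Adnp, a chromatin-associated homeobox protein (0.32 ± 0.22), each with an edgeR adjusted p of 1.00. On simulated counts for the EG1 comparison, drawn in the same way, 104 of 200 genes changed by 0.5 passed the unadjusted rule. At an adjusted p under 0.05 the number was 0.

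Between the control cells of the 2 phases, 2 of the 100 genes were higher in LG1 (0.709% of all genes) and 1 lower (0.733%). Ankle1, an endonuclease, had 5.77 and 9.88 CPM in EG1 and 12.5 and 13.1 CPM in LG1 (0.78 ± 0.30, edgeR adjusted p = 1.00). Tdgf1-ps1 had 15.4 and 15.3 CPM in EG1 and 18.1 and 19.6 CPM in LG1 (0.38 ± 0.16, edgeR adjusted p = 1.00). Cxcl12 had 6.97 and 5.84 CPM in EG1 and 4.41 and 2.92 CPM in LG1 (-0.74 ± 0.24, edgeR adjusted p = 1.00). The groups of all 3 did not overlap, and the median of the 100 genes was 0.04 beside 0.00. Without EG1 control replicate 1 or LG1 control replicate 2, none of the 100 passed the unadjusted rule in either direction. In the fit with the replicate block 11 were higher (4.02%) and 3 lower (3.29%), of which 1 higher (0.538%) and 1 lower (0.186%) passed the adjusted rule.

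Markers of other cells were read beside these results. The summed CPM of 7 trophoblast markers was 61.4 and 88.8 in untreated SYAT cells and 76.6 and 108 at 8 h, and that of 7 primitive endoderm markers was 54.8 and 56.2 against 61.6 and 71.9. In wtSRCAP control and IAA libraries the fibroblast sums were 6.42 to 7.59 and 11.4 to 12.9, with 2 of 7 markers above 1 CPM, and in cdSRCAP cells 9.08 to 9.80 and 9.38 to 9.46. Primitive endoderm sums were 100 to 187 and 128 to 200 in wtSRCAP cells and 253 to 330 and 305 to 315 in cdSRCAP cells. Trophoblast sums were 54.5 to 156 and 62.4 to 145 in wtSRCAP cells, where replicates lay far apart. In cdSRCAP cells they were 57.1 to 68.1 and 68.9 to 80.1. Their part in the result was not tested. In these bulk samples fewer cells of a type and less RNA per cell cannot be told apart.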

How the data were processed

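Reads were aligned by the authors to mm10 with STAR and counted with featureCounts of Rsubread on GENCODE vM25, separately for exons and for introns. The submitters' processing notes also name SAMtools 1.10, Picard and DESeq2. The deposited values are whole-number counts per gene, an exon and an intron column per library, without normalization. The authors' columns of fold changes and p-values were not used.

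The members and lists were chosen with earlier results of these data known. CPM were counts divided by column totals. Comparisons outside the time course used edgeR 4.0.16 in R 4.3.3 (glmQLFit and glmQLFTest, TMM, filterByExpr with a minimum count of 10 and a total of 15, group as the only term), with 1 fit per table and p-values adjusted over all genes. DESeq2 1.42.0 was an alternative. The fits were tested on simulated data. Named genes were the first 15, 3 on each side of the threshold, the 3 of smallest p in each comparison, examples by symbol family, and Srcap. Genes named outside this rule, such as Cdk6 and the other genes past the unadjusted rule, were chosen after their values were seen. Replicates are biological duplicates cultured and treated independently according to the study's methods. No 2 libraries of a group agreed within sampling noise, with a chi-square per degree of freedom of 23.7 or more. Symbols matched for 54349 gene identifiers exactly and for 792 more without the version. Values after ± are standard errors from the edgeR fit, which include the spread between replicates. Promoter windows are from RefSeq on GRCm38.p6, and positions from GENCODE vM21. Deviations from the group means correlated between same-numbered libraries at 0.744 to 0.875 in sorted cells, 0.632 to 0.74 in the wtSRCAP and cdSRCAP cells and 0.36 in CGR8 cells. The pairing comes from these correlations and not from the labels, and fits with the replicate number as a block are given beside those without it.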

Additional observations from a re-analysis of the deposited data

How the results depend on the processing

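The medians of the 100 genes stayed above 0 with IAA in wtSRCAP and in cdSRCAP cells under every alternative run, and below 0 in CGR8 cells with exon counts. Counts of genes were less stable. They stand in this section without shares of all genes, so they show how far a count moved and nothing more about the 100 genes. Of 558 values of counts and medians under alternatives, 442 kept within their limits and 116 moved. Another 442 values were of named genes and of the time course medians at 4 h, 6 h and 8 h. Of these, 406 kept direction and side of the threshold or, for the medians, kept within their limits. The rest were of named genes, of which 32 passed a threshold they had missed and 4 changed direction. The cause was not tested unless stated. With 2 libraries a group, a library left alone in its group is assumed to vary like the others.

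Without a filter on low counts, more genes entered the test. The adjusted rule then passed 3 of the 100 in CGR8 cells, 1 in wtSRCAP cells, 2 between the lines in control and 4 between them with IAA. The unadjusted rule passed 1 higher and 1 lower in EG1, 13 higher in cdSRCAP cells, 6 lower between the lines in control, 8 higher and 7 lower with IAA, and 1 higher in each interaction. With DESeq2 size factors 1 was higher in LG1 and 2 were lower between the lines with IAA. DESeq2 passed 2 at the adjusted rule in CGR8 cells and 2 between the lines in control, and at the unadjusted rule 1 higher in LG1 against EG1 and 2 lower between the lines with IAA. With column totals, chosen after the data were seen, 7 were higher in CGR8 cells, 1 in LG1 against EG1, 10 in wtSRCAP cells, 4 in cdSRCAP cells and 10 between the lines with IAA.

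With intron columns CGR8 cells had 0 lower and 1 past the adjusted rule, EG1 had 3 lower, LG1 had 1 lower, cdSRCAP cells had 12 higher, the lines in control had 16 higher and 1 lower and with IAA 12 higher and 4 lower. The interaction of the lines had 2 lower, and that of the phases 1 higher and 1 lower. LG1 against EG1 had 30 higher, 31 lower and 56 past the adjusted rule, but the EG1 intron columns held counts of single-exon genes and those of LG1 did not, so they are not comparable. The direction changed for Dusp12 in LG1 with IAA (-8.41), Ankle1 (-1.07) and Tdgf1-ps1 (-9.22) in LG1 against EG1, and Mttp in the interaction of the lines (0.36). The choice of genes kept 63 of 100 with TMM-scaled CPM and 31 with intron columns.

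With the replicate number as a block, counts rose for the 100 genes and for all genes, whose shares stand in the report. In wtSRCAP cells 53 were higher and 19 passed the adjusted rule, and in cdSRCAP cells 34 and 8. CGR8 cells had 7 higher, 24 lower and 5 adjusted. EG1 had 3 higher and 2 lower, LG1 5 higher, and LG1 against EG1 11 higher, 3 lower and 2 adjusted. The lines in control had 20 higher, 8 lower and 5 adjusted, and with IAA 11, 14 and 7. The interaction of the lines had 7 lower, and that of the phases 3 higher and 1 lower. The labels give no meaning to the number, so what the block removes was not tested.

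Leaving out 1 library at a time gave, in CGR8 cells, 2 to 6 higher, 5 to 25 lower and 0 to 12 adjusted, in EG1 0 to 1 lower, and in LG1 against EG1 0 to 2 higher and 0 to 2 lower. In wtSRCAP cells 11 to 41 were higher and 0 to 2 lower, and in cdSRCAP cells 1 to 12 higher. The lines in control had 0 to 4 lower, and with IAA 3 to 9 higher, 0 to 20 lower and a median of -0.36 to 0.19. The interaction of the lines had 0 to 1 higher and 0 to 8 lower, and that of the phases 0 to 1 higher. The choice of genes kept 32 to 100.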
